A study of Caenorhabditis elegans with 16 samples.

Results

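The 8 genes here code for cathepsin B-type (cpr-1, cpr-2, cpr-3, cpr-4, cpr-5, cpr-6 and cpr-8) and cathepsin L-type (cpl-1) cysteine proteases of Caenorhabditis elegans. The set leaves out cpr-9, another cathepsin B-type gene. The 8 were chosen by gene symbol, with earlier results of these data known. They are 8 of the 46589 genes in the deposited expression table, where each carries the annotation Peptidase_C1, the papain family. Wild-type N2 worms, synchronised by bleaching, were given tunicamycin at 1.25 μg/ml in S Medium for 24 h (TM) or served as controls (CNT). This was done either with embryos (EMBRYO groups) or from the L4 larval stage (L4 groups), and worms were then moved to NGM plates. By the paper, embryo-treated larvae grew up on the plates, while L4 treatment ran from L4 to adult Day 1. The time from tunicamycin to RNA thus differed between the stages. RNA came from whole worms described as Day 1 adults, with 4 libraries for CNT and 4 for TM at each stage, every library from its own plate. All 4 groups share the N2 genotype, and each library is the RNA of a worm population. The authors' own group means in the table are headed L1 for the EMBRYO groups and D1 for the L4 groups. In whole-worm RNA, fewer cells of a type and less RNA per cell cannot be told apart.

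Cathepsins B and L are made in the endoplasmic reticulum as inactive, usually glycosylated precursors and become active in the acidic lysosome, where they cut proteins delivered by endocytosis and autophagy. Tunicamycin blocks N-linked glycosylation and so causes unfolded proteins to collect in the endoplasmic reticulum. In C. elegans the intestine is both the digestive tract and the main store of lysosome-related organelles, and several cpr genes are best known as gut proteases. cpl-1 is needed for embryonic development and yolk processing, and cystatins are the protein inhibitors of this family.

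Of the 8 genes, 7 lie on chromosome V and 1, cpr-6 (C25B8.3, X, 6607203 to 6609046, plus strand), on X, by the coordinates of the deposited table, with a genome build not given in the sources used here. cpr-5 (W07B8.5, V, 1132597 to 1133993, minus strand) and cpr-8 (W07B8.1, V, 1134603 to 1139171, plus strand) stand head to head with 609 bases between them. A papain-family gene outside the 8, W07B8.4 (V, 1130088 to 1131930, minus strand), ends the row 666 bases before cpr-5. The others on V are far apart: cpr-1 (C52E4.1, 11975515 to 11976759, plus strand), cpr-2 (F36D3.9, 16532989 to 16534110, minus strand), cpr-3 (T10H4.12, 15296834 to 15298676, minus strand), cpr-4 (F44C4.3, 6614674 to 6615845, plus strand) and cpl-1 (T03E6.7, 16592571 to 16595346, minus strand). cpr-4 overlaps an antisense noncoding gene, F44C4.8, and the sources do not settle whether the libraries kept strand, so reads of both cannot be told apart. Reads from stretches shared between related proteases can be split or dropped by the counting, which leaves the level of a single copy uncertain to that extent.

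Values are FPKM, read fragments scaled to gene length and to a size set for each library, so levels can be compared between genes. That size did not follow the reads on genes alone. In EMBRYO TM 1, 64452 reads of cpr-1 gave 3872.8 FPKM with 14935544 reads on genes. In EMBRYO TM 4, 56994 reads of cpr-1 gave 2764.4 FPKM with 15744453 reads on genes. Reads on genes, recovered from the FPKM, ranged from 12361026 to 47193068 per library. Within 3 groups 1 library stood apart, by the mean chi-square per gene between its reads and those of the other libraries of its group. These were EMBRYO TM 4 (110.9, against 38.8 to 52.4 for the others), L4 CNT 2 (43.1, against 21.8 to 24.6) and L4 TM 4 (107.3, against 37.7 to 40.0). No cutoff was set. In EMBRYO CNT, where values were lower, EMBRYO CNT 1 was also the farthest (18.3, against 8.92 to 12.0), and it is not among the 3. Genes seen with 1 read were 0.702% of those detected in L4 TM 4 and 8.97% to 10.9% elsewhere. Below, results are also given without these 3 libraries, an alternative chosen after the data were seen, which left the counts of the 8 genes past both thresholds at 6, 2, 6 and 7 in the comparisons below (EMBRYO TM, L4 TM, controls, interaction).

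Marker genes of 9 tissues were measured in all 4 groups, and no marker in the table was at 0 in all libraries of a group. The summed level of 10 intestine markers was 622.4 to 671.5 FPKM in EMBRYO CNT, 997.1 to 1349.1 in EMBRYO TM, 895.3 to 1056.7 in L4 CNT and 746.9 to 1009.7 in L4 TM. The 6 vitellogenin genes, which adult intestine makes in quantity, summed to 3679 to 5613 FPKM in EMBRYO CNT and 19651 to 23421 in L4 CNT. They summed to 6496 to 22386 FPKM in EMBRYO TM, lowest in EMBRYO TM 4, and to 13948 to 17790 in L4 TM, lowest in L4 TM 4. Every EMBRYO CNT library was thus below every library of the other groups in this sum, though all worms are described as Day 1 adults. Taken by itself, vit-2 overlapped between EMBRYO CNT (2568 to 3660 FPKM) and EMBRYO TM (2769 to 9724). Body wall muscle markers ran the other way in the controls, with medians of their sum of 2615 FPKM in EMBRYO CNT and 507.5 in L4 CNT. In EMBRYO TM the median of that sum was 1251 FPKM, and 3 of 5 muscle markers were lower past both thresholds used below, beside 7.61% of all genes. All 6 yolk genes were higher there, with a median log2 fold change of 4.49, as were 8 of the 9 sperm markers tested, beside 5.06% of all genes. Of the 9, 1 was lower by adjusted p alone, beside 27.0%. The sum of the 10 sperm markers was 246.4 to 268.2 FPKM in EMBRYO CNT and 750.8 to 848.1 in EMBRYO TM. Of 9 germline markers 2 were higher past both thresholds and 7 by adjusted p alone, beside 5.06% and 25.7%. The endoplasmic reticulum chaperone gene hsp-4 averaged 75.1 ± 8.11 FPKM in EMBRYO CNT and 144.1 ± 8.02 in EMBRYO TM, and 129.7 ± 4.13 in L4 CNT and 192.1 ± 15.5 in L4 TM (SD, n = 4 each). It is 1 of 4 listed markers of endoplasmic reticulum stress, of which 0 were past both thresholds in either TM comparison. By adjusted p alone 4 were higher in EMBRYO TM and 2 in L4 TM, beside 25.7% and 20.3% of all genes.

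The 8 genes differed widely in level. In EMBRYO CNT the order from high to low was cpr-1 (944.4 ± 48.3 FPKM), cpr-6 (457.8 ± 24.3), cpl-1 (416.5 ± 15.99), cpr-4 (167.7 ± 10.4), cpr-5 (78.9 ± 2.06), cpr-2 (70.1 ± 5.69), cpr-3 (21.2 ± 1.12) and cpr-8 (1.60 ± 0.529), all SD with n = 4, and no neighbours in that order overlapped in their libraries. In L4 CNT the highest was cpl-1 at 1692.0 ± 159.7 FPKM, followed by cpr-1 at 1110.7 ± 202.2 and cpr-6 at 1023.8 ± 71.6, and the last pair overlapped. cpr-2 was last in both L4 groups. In EMBRYO TM the order was cpr-1, cpr-4, cpl-1, cpr-6, cpr-5, cpr-3, cpr-2 and cpr-8, again without overlap between neighbours. In L4 TM the order was cpl-1, cpr-6, cpr-1, cpr-5, cpr-4, cpr-8, cpr-3 and cpr-2, and neighbours overlapped from cpr-1 to cpr-5, from cpr-5 to cpr-4 and from cpr-8 to cpr-3. The plot of levels by library shows these values gene by gene.

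**Figure D1:**
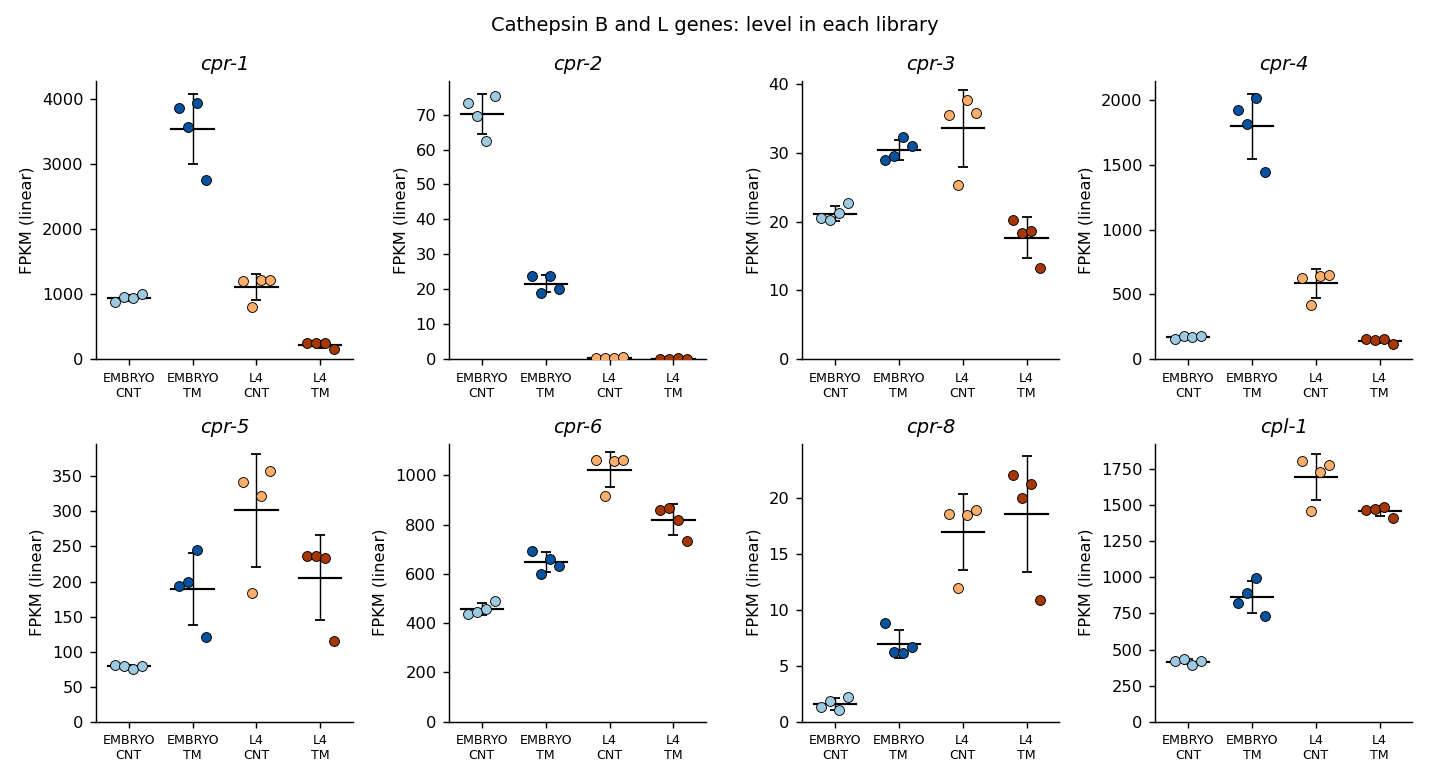
Level of each gene in FPKM (linear vertical axis, a scale of its own in each panel) in the 4 libraries of each group, in replicate order from left to right. Points are libraries, wide bars the mean and error bars the SD; cpr-1 and cpr-4 are highest in EMBRYO TM, cpr-2 in EMBRYO CNT, and cpr-6 and cpl-1 in L4 CNT.

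After treatment of embryos 5 of the 8 genes were higher and 1 was lower past both thresholds, a log2 fold change beyond 1 in either direction and an adjusted p under 0.05 by limma. Over all 14930 genes tested 5.06% were higher and 7.61% lower by that rule. By adjusted p alone 7 of the 8 were higher and 1 was lower, against 25.7% and 27.0% of all genes. The median log2 fold change of the 8 was 1.12, beside -0.029 for all genes tested. Fold changes here are on the log2(FPKM + 1) scale, which understates the change of low genes.

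cpr-4, a cathepsin B-type protease that can be secreted, had 152.9, 175.0, 167.9 and 175.0 FPKM in EMBRYO CNT 1 to 4. In EMBRYO TM 1 to 4 it had 1925.7, 1818.8, 2015.8 and 1444.6 FPKM. Every treated library was thus far above every control, and the ratio of the means was 10.7. The log2 fold change was 3.41 (standard error, SE, 0.12, adjusted p by limma = 1.36e-07). Among the 8 genes this was the largest increase.

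cpr-1, a gut protease and the most abundant of the 8 in this comparison, had 885.8, 948.7, 939.2 and 1003.8 FPKM in EMBRYO CNT 1 to 4. Its level in EMBRYO TM 1 to 4 was 3872.8, 3579.9, 3949.7 and 2764.4 FPKM. The groups did not overlap, and EMBRYO TM 4, which stands apart from its group, was the lowest treated library for both cpr-1 and cpr-4. The log2 fold change was 1.89 (SE 0.13, adjusted p by limma = 4.99e-06), and 2.01 without that library, where that of cpr-4 was 3.51.

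cpr-5 and cpr-8, the head-to-head pair, were both higher after embryo treatment. cpr-5 had 80.5, 79.5, 75.9 and 79.9 FPKM in EMBRYO CNT and 193.4, 199.2, 245.6 and 121.1 in EMBRYO TM. The log2 fold change of cpr-5 was 1.21 (SE 0.19, adjusted p by limma = 6.65e-04), and 1.41 without EMBRYO TM 4, the lowest treated library. cpr-8 was close to the filter of a mean of 1 FPKM in EMBRYO CNT, where it had 1.28, 1.82, 1.07 and 2.24 FPKM from 22 to 39 reads a library. In EMBRYO TM it had 8.81, 6.26, 6.17 and 6.66 FPKM from at least 83 reads a library. These groups did not overlap either, and the log2 fold change was 1.63 (SE 0.17, adjusted p by limma = 6.44e-05), but with a pseudocount of 5 in place of 1 it was 0.86 and no longer past the fold threshold.

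cpl-1, the cathepsin L gene, had 418.5, 431.1, 393.8 and 422.4 FPKM in EMBRYO CNT and 823.6, 894.1, 995.8 and 733.4 in EMBRYO TM. All treated libraries were above all controls, and the ratio of the means was 2.07. The log2 fold change of 1.04 (SE 0.10, adjusted p by limma = 5.42e-05) was just past the threshold. It was 0.97 after rescaling to TPM, 0.87 by limma's voom on the recovered reads and 0.97 without EMBRYO TM 3.

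cpr-6 and cpr-3 stayed within the fold threshold, though neither overlapped between groups. cpr-6 had 435.9 to 491.5 FPKM in EMBRYO CNT and 601.4 to 694.9 in EMBRYO TM, a log2 fold change of 0.50 (adjusted p by limma = 9.34e-04). cpr-3 had 20.2 to 22.7 FPKM in EMBRYO CNT and 29.0 to 32.2 in EMBRYO TM, a log2 fold change of 0.51 (adjusted p by limma = 3.86e-04).

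cpr-2 was the exception. It had 73.2, 69.7, 62.3 and 75.3 FPKM in EMBRYO CNT 1 to 4 and 23.8, 18.9, 23.7 and 20.0 in EMBRYO TM 1 to 4. Every treated library was under every control, and the control mean was 3.25 times the treated mean. The log2 fold change was -1.66 (SE 0.10, adjusted p by limma = 2.95e-06).

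After treatment from L4, 0 of the 7 genes tested were higher and 2, cpr-1 and cpr-4, were lower past both thresholds. Over all 11964 genes tested 0.585% were higher and 3.20% lower. By adjusted p alone 4 were lower and 0 higher of the 7, against 15.8% and 20.3% of all genes. The median log2 fold change of the 7 was -0.56, beside 0.046 for all genes tested.

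cpr-1 had 1203.4, 807.6, 1210.8 and 1221.1 FPKM in L4 CNT 1 to 4 and 245.8, 249.5, 249.9 and 148.6 in L4 TM 1 to 4. The lowest control, L4 CNT 2, was still above every treated library, and the control mean was 4.97 times the treated mean. The log2 fold change was -2.32 (SE 0.20, adjusted p by limma = 8.82e-05). cpr-4 followed the same course, with 627.4, 419.7, 642.3 and 647.0 FPKM in L4 CNT and 152.1, 149.6, 156.5 and 113.2 in L4 TM. For cpr-4 the log2 fold change was -2.01 (SE 0.16, adjusted p by limma = 6.05e-05). Without L4 CNT 2 and L4 TM 4, which were the low libraries of their groups for both genes, the log2 fold changes were -2.28 for cpr-1 and -2.06 for cpr-4.

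cpr-3, which was higher by adjusted p alone after embryo treatment, was lower by adjusted p alone after L4 treatment. It had 35.4, 25.3, 37.7 and 35.8 FPKM in L4 CNT and 20.2, 18.4, 18.6 and 13.3 in L4 TM. The groups did not overlap, and the log2 fold change was -0.89 (SE 0.16, adjusted p by limma = 0.00289). By voom on the recovered reads it was -1.004 and without L4 CNT 2 it was -1.019, both just past the fold threshold.

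The other 4 genes tested were within the fold threshold in L4 TM. cpr-6 had 916.5 to 1061.6 FPKM in L4 CNT and 733.5 to 869.6 in L4 TM, or -0.32 on the log2 scale (adjusted p by limma = 0.0198). This p was 0.0508 to 0.0620 without any 1 of L4 CNT 1, L4 CNT 3, L4 CNT 4 and L4 TM 3, and 5.36e-05 without L4 CNT 2 and L4 TM 4 together. cpl-1 had 1457.7 to 1805.9 FPKM in L4 CNT and 1407.1 to 1483.5 in L4 TM, which overlap, and its log2 fold change was -0.21 (adjusted p by limma = 0.0964). Without L4 CNT 2 and L4 TM 4 it was -0.26 (adjusted p by limma = 1.18e-04), without L4 CNT 2 alone -0.28 (0.0123), by voom -0.25 (0.00918) and after rescaling to TPM -0.22 (0.0372).

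cpr-5 and cpr-8 each had 1 low library in both L4 groups, and that library was L4 CNT 2 or L4 TM 4. cpr-5 had 342.2, 183.3, 322.4 and 357.4 FPKM in L4 CNT and 236.2, 236.9, 233.7 and 115.0 in L4 TM, or -0.56 on the log2 scale (adjusted p by limma = 0.167). Without those 2 libraries the log2 fold change was -0.53 with an adjusted p of 1.11e-05 by limma. cpr-8 had 18.6, 11.9, 18.5 and 18.9 FPKM in L4 CNT and 22.0, 20.0, 21.3 and 10.9 in L4 TM. Its log2 fold change was 0.10 (adjusted p by limma = 0.789), and 0.17 with an adjusted p of 0.0152 without those 2 libraries, while the sign turned to -0.056 without L4 CNT 2 alone and to -0.023 by voom.

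cpr-2 was under the filter in the L4 libraries. It was supported by 6, 2, 7 and 14 reads in L4 CNT 1 to 4 (0.231, 0.154, 0.399 and 0.712 FPKM) and by 0, 1, 3 and 0 reads in L4 TM 1 to 4. A floor of 3 reads a library would be 0.147 FPKM in L4 TM 1 and 0.0625 in L4 TM 4, the libraries with no read, by counting error alone. The groups overlapped, and a two-sided exact permutation test gave p = 0.0571, where the smallest p that 4 against 4 libraries allow is 0.0286.

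**Figure D2:**
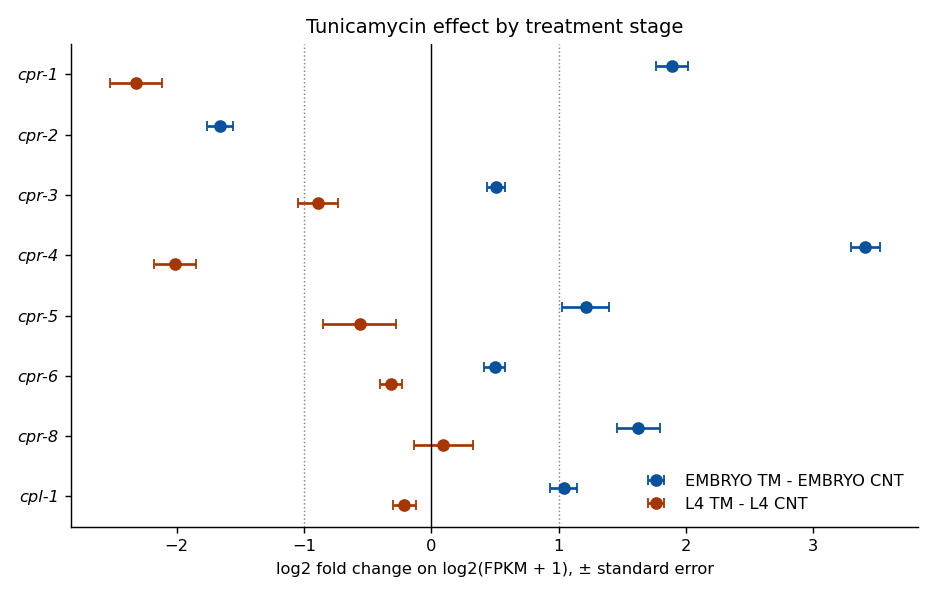
Log2 fold change on log2(FPKM + 1) with its standard error (horizontal axis) for each gene, in EMBRYO TM against EMBRYO CNT (blue) and L4 TM against L4 CNT (brown), 4 libraries a group. Dotted lines mark the fold threshold of 1 in either direction; cpr-1 and cpr-4 lie past it on opposite sides in the 2 comparisons, and cpr-2 has no L4 value because it was under the filter.

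The difference between the TM effects was tested as an interaction over all 16 libraries, EMBRYO TM minus EMBRYO CNT less L4 TM minus L4 CNT, on 13856 genes. It was past both thresholds on the positive side for 6 of the 8 genes and on the negative side for 1, beside 6.50% and 4.22% of all genes. cpr-4 had the largest difference, 5.42 on the log2 scale (adjusted p by limma = 4.19e-11), followed by cpr-1 with 4.21 (5.37e-09). These are the 2 genes that were higher in one TM comparison and lower in the other past both thresholds. For cpr-5, cpr-8, cpr-3 and cpl-1 the differences were 1.77, 1.53, 1.40 and 1.25, and for cpr-6 0.82, within the fold threshold. The difference of cpr-8 was 0.77 with a pseudocount of 5. For cpr-2 it was -1.29 (adjusted p by limma = 2.97e-05), but this rests on the pseudocount, since the L4 levels were near 0. With a pseudocount of 0.1 the cpr-2 difference was -0.11 (adjusted p by limma = 0.903), and by voom on the recovered reads 1.37 (adjusted p = 0.184).

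The control groups differed as well, and they share libraries with the TM comparisons, so their values stand beside those above and not as a separate line of evidence. In EMBRYO CNT against L4 CNT, 1 of the 8 genes was higher and 5 were lower past both thresholds, beside 26.1% and 14.5% of the 14221 genes tested. The higher one was cpr-2, with a mean of 70.1 FPKM against 0.374. It passed the filter only through EMBRYO CNT, since the L4 CNT libraries had 2 to 14 reads, so it had to differ, and its log2 value of 5.71 depends on the pseudocount (7.35 with 0.1 and 3.80 with 5). Lower in EMBRYO CNT were cpr-8 (-2.79), cpl-1 (-2.02), cpr-5 (-1.87), cpr-4 (-1.77) and cpr-6 (-1.16) on the log2 scale. The value of cpr-6 was -0.97 after rescaling to TPM and -0.93 by voom. cpr-3 was at -0.63 (adjusted p by limma = 5.94e-04). cpr-1 had overlapping controls and a log2 fold change of -0.21 (adjusted p by limma = 0.162). The value of cpr-1 was 0.010 by voom, -0.36 (adjusted p by limma = 0.0300) after median-ratio rescaling and -0.36 (adjusted p by limma = 1.85e-04) without L4 CNT 2. Scaling moved this comparison: the median over all genes tested was 0.079 as deposited, -0.051 after median-ratio rescaling, 0.25 after TPM rescaling and 0.32 by voom, and the higher genes were 64.3%, 54.7%, 76.96% and 78.8% of all calls. In EMBRYO TM against EMBRYO CNT that median was -0.029 as deposited and -0.20 by voom, and the higher genes were 40.0% and 25.2% of all calls.

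Set side by side, cpl-1 had means of 416.5, 861.7 and 1692.0 FPKM in EMBRYO CNT, EMBRYO TM and L4 CNT, and all 4 libraries of EMBRYO TM lay between the other groups. The same held for cpr-6, with 457.8, 647.4 and 1023.8 FPKM, and for cpr-8, with 1.60, 6.98 and 17.0 FPKM. cpr-2 ran the other way, with 70.1, 21.6 and 0.374 FPKM. For cpr-5, EMBRYO TM (121.1 to 245.6 FPKM) overlapped L4 CNT (183.3 to 357.4), and so it did for cpr-3 (29.0 to 32.2 and 25.3 to 37.7). The share of all genes that take such a middle place was not counted. cpr-1 and cpr-4 did not take such a middle place: every EMBRYO TM library was above every library of both control groups. The design gives each stage its own control group. The stage of handling, the time from tunicamycin to RNA, the developmental state at harvest and any plate or library batch cannot be told apart. Within the EMBRYO stage, the summed yolk, sperm and body wall muscle markers did not overlap between CNT and TM. A response to tunicamycin and a difference in developmental state at harvest thus cannot be told apart there, and TM effect means only TM against CNT.

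The summed level of the 8 genes averaged 2158 ± 87.2 FPKM in EMBRYO CNT and 7101 ± 952 in EMBRYO TM, and 4763 ± 629 in L4 CNT and 2886 ± 230 in L4 TM (SD, n = 4 each). In both stages the treated and control libraries did not overlap in this sum. The makeup of the sum shifted too. cpr-1 made up 43.7% of it in EMBRYO CNT, 49.8% in EMBRYO TM, 23.2% in L4 CNT and 7.67% in L4 TM. cpr-4 made up 7.77%, 25.4%, 12.2% and 4.93% in the same order. cpl-1 had 19.3%, 12.2%, 35.7% and 50.7% of the sum. In L4 TM it thus held about as much as the 7 listed cpr genes combined. cpr-9, a cathepsin B-type gene outside the 8, is not in this sum. It averaged 1442 FPKM in L4 TM, beside 1457 for cpl-1. The ratio of cpr-4 to cpr-1 within a library differed between groups, at 0.178 ± 0.00532 in EMBRYO CNT, 0.510 ± 0.0104 in EMBRYO TM, 0.525 ± 0.00562 in L4 CNT and 0.651 ± 0.0743 in L4 TM (SD, n = 4 each), where it ran from 0.599 to 0.762.

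**Figure D3:**
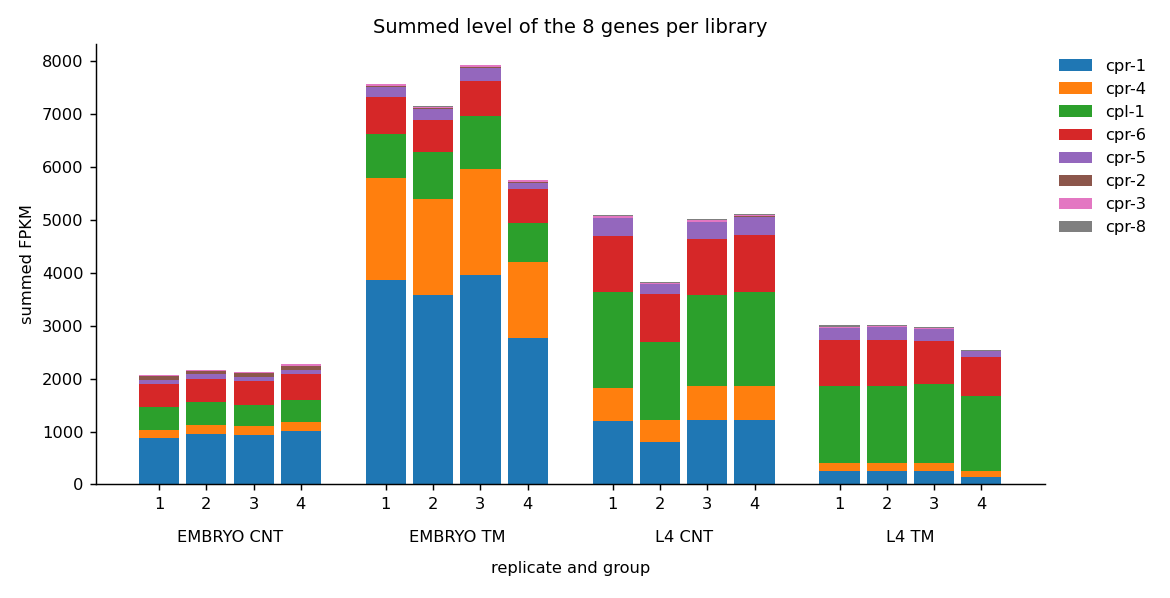
Summed FPKM of the 8 genes (vertical axis) in each of the 16 libraries, stacked by gene, with the replicate number and group under each bar. The EMBRYO TM libraries sum to 5755 to 7929 FPKM and the L4 TM libraries to 2542 to 3015, and cpr-1 and cpr-4 take most of the sum in EMBRYO TM but little in L4 TM.

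EMBRYO TM had the higher intestine markers too, by the sums given above. Of 10, 4 were higher and 0 lower past both thresholds, beside 5.06% and 7.61% of all genes. By adjusted p alone 6 were higher and 2 lower, beside 25.7% and 27.0%. In L4 TM 0 of 10 were higher and 1 lower past both thresholds, beside 0.585% and 3.20%. By adjusted p alone 1 was higher and 5 lower there, beside 20.3% and 15.8%. Relative to the summed intestine markers of the same library, the 8 genes together averaged 3.34 ± 0.133 in EMBRYO CNT and 5.81 ± 0.09996 in EMBRYO TM, and 4.72 ± 0.316 in L4 CNT and 3.13 ± 0.193 in L4 TM (SD, n = 4 each). Groups of a stage did not overlap on this scale. For cpr-4 the ratio was 0.259 ± 0.0161 and 1.47 ± 0.0289 in the EMBRYO groups and 0.577 ± 0.0719 and 0.154 ± 0.00156 in the L4 groups. For cpr-1 it was 1.46 ± 0.0587 and 2.89 ± 0.105, and 1.097 ± 0.131 and 0.238 ± 0.0265. Both genes thus kept their direction in each stage. cpl-1 overlapped between the EMBRYO groups on this scale (0.589 to 0.693 and 0.642 to 0.738), as did cpr-5 (0.114 to 0.129 and 0.121 to 0.182). cpr-6 and cpr-3 were lower in EMBRYO TM on this scale, without overlap, with means of 0.707 and 0.536 for cpr-6 and of 0.0327 and 0.0253 for cpr-3 in EMBRYO CNT and EMBRYO TM. vha-6 is on this marker list and among the lysosome genes below. The part of the other tissues' markers in these results was not tested.

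The genes with the most similar pattern over the 16 libraries, by Pearson's r of log2(FPKM + 1) among genes with a mean of at least 10 FPKM, differed between the 8. The libraries fall into 4 groups, so these values mainly describe group means and carry no test. For cpr-4 the nearest gene was lipl-1, a lysosomal lipase (r = 0.977), with means of 8.33, 96.9, 33.7 and 9.71 FPKM from EMBRYO CNT through EMBRYO TM and L4 CNT to L4 TM. The next were Y51H4A.5 (0.964) and cah-3, a carbonic anhydrase gene (0.962). For cpr-1 they were C50F7.5 (0.981), Y18D10A.23 (0.980) and C24B9.3 (0.976). For cpr-2 they were ptr-23 (0.994), W02D7.11 (0.993) and clec-17 (0.992), and for cpr-3 acl-7 (0.959), Y43F8B.2 (0.927) and cyp-37A1 (0.921). cpr-5 was nearest to ost-1 (0.978), kdp-1 (0.963) and ads-1 (0.952), and cpr-6 to ech-4 (0.990), abhd-3.1 (0.983) and Y73B6BL.31 (0.981). cpr-8 was nearest to pars-2, a mitochondrial tRNA synthetase gene (0.990), nduf-2.2 (0.987) and asfl-1 (0.986), and cpl-1 to anp-1, gpdh-2 and cku-70 (0.983, 0.983 and 0.982). Among the 8 themselves, cpr-1 and cpr-4 had r = 0.88 (Spearman's rho 0.96), cpr-6 and cpl-1 r = 0.97 (rho 0.94), and cpr-2 and cpl-1 r = -0.94 (rho -0.74).

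The table holds 21 other papain-family genes, of which 12 had a mean of at least 1 FPKM over all libraries and 3 a mean of at least 100. In EMBRYO TM, 13 were tested, 2 were higher and 3 lower past both thresholds, beside 5.06% and 7.61% of all genes, with a median of -0.035 on the log2 scale beside -0.029. The higher ones were cpr-9, another cathepsin B-type gene, and W07B8.4. cpr-9 went from 871.1 ± 62.4 to 2362 ± 225.9 FPKM (SD, n = 4), a log2 fold change of 1.44, and W07B8.4, the neighbour of cpr-5, from 7.64 ± 0.650 to 18.1 ± 1.77 FPKM, 1.14 on the log2 scale. The lower ones were tag-196, a cathepsin F-like gene (-1.79), cpz-2, a cathepsin Z-type gene (-1.22), and R07E3.1 (-1.04). With means of 194.5, 302.4 and 145.2 FPKM in EMBRYO CNT and of 40.8, 52.6 and 28.6 in L4 CNT, these 3 genes were also higher in the EMBRYO control than in the L4 control past both thresholds. The other cathepsin Z-type gene, cpz-1, had 223.9 ± 18.6 and 218.3 ± 12.6 FPKM in EMBRYO CNT and EMBRYO TM (adjusted p by limma = 0.755).

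In L4 TM, 12 of the other papain-family genes were tested, 0 were higher and 1 lower past both thresholds, beside 0.585% and 3.20% of all genes, with a median of -0.24 on the log2 scale beside 0.046. The lower one was W07B8.4, from 4.33 ± 0.557 to 0.875 ± 0.224 FPKM (SD, n = 4), -1.51 on the log2 scale. It was called in both directions across the stages, with an interaction of 2.65 (adjusted p by limma = 2.74e-09), while its neighbours cpr-5 and cpr-8 were not called in L4 TM. cpr-9 had 2697 ± 169.3 FPKM in L4 CNT and 1442 ± 33.2 in L4 TM, -0.90 on the log2 scale (adjusted p by limma = 8.37e-05), within the fold threshold. Its interaction was 2.34. In EMBRYO CNT against L4 CNT, 3 were higher (tag-196, cpz-2 and R07E3.1) and 4 lower (cpr-9, F26E4.3, F32H5.1 and Y40H7A.10) of 12 tested, beside 26.1% and 14.5% of all genes. The interaction was called for 2 of 12 on the positive side (cpr-9 and W07B8.4) and 3 on the negative side (tag-196, cpz-2 and R07E3.1), beside 6.50% and 4.22%.

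**Figure D4:**
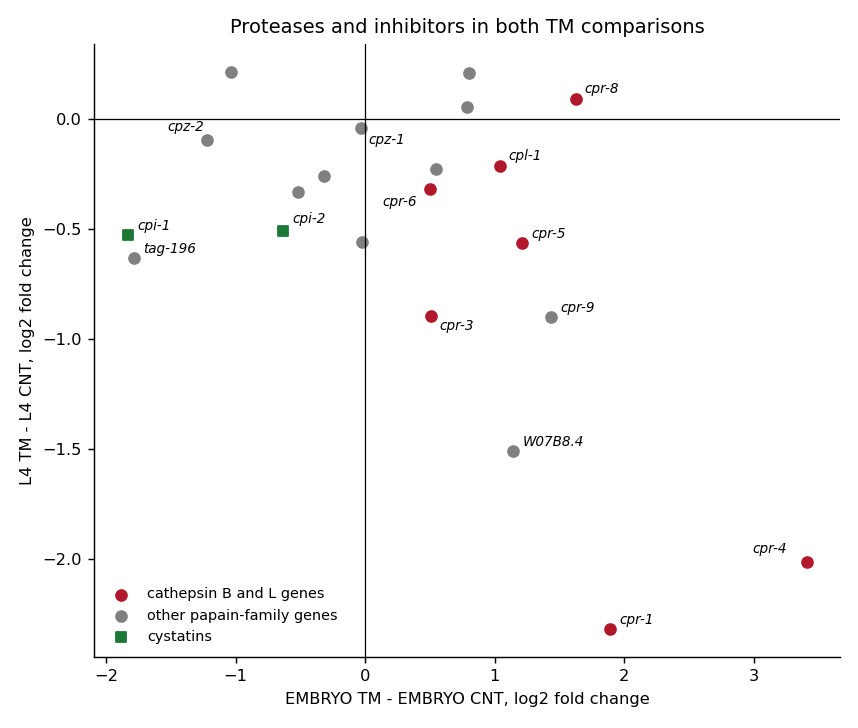
Log2 fold change on log2(FPKM + 1) in EMBRYO TM against EMBRYO CNT (horizontal axis) and in L4 TM against L4 CNT (vertical axis) for the 7 cathepsin genes tested in both (red), the other papain-family genes tested in both (grey) and the 2 cystatins (green). cpr-1 (1.89 and -2.32), cpr-4 (3.41 and -2.01) and W07B8.4 (1.14 and -1.51) lie at the lower right, and cpi-1 (-1.83 and -0.53) at the left.

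The cystatins, inhibitors of these proteases, were both lower in each treatment by adjusted p alone, as were 27.0% of all genes in EMBRYO TM and 15.8% in L4 TM. cpi-1 was at 283.2 ± 37.1 FPKM in EMBRYO CNT and 80.7 ± 24.6 in EMBRYO TM (SD, n = 4), that is -1.83 on the log2 scale (adjusted p by limma = 7.46e-05), and was the only cystatin called past both thresholds in either TM comparison. In the L4 groups cpi-1 had 148.2 ± 4.04 and 102.8 ± 8.13 FPKM, -0.53 on the log2 scale (adjusted p by limma = 5.65e-04). cpi-2 had 195.9 ± 15.0 and 125.7 ± 10.4 FPKM in the EMBRYO groups (-0.64 on the log2 scale) and 217.3 ± 32.5 and 151.7 ± 13.01 in the L4 groups (-0.51). The interaction was past both thresholds for cpi-1 (-1.31) and not for cpi-2 (-0.13, adjusted p by limma = 0.583). In EMBRYO TM, cpi-1 was thus lower while cpr-1 and cpr-4 were higher.

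Lysosomal hydrolases of other kinds were counted from a list of 34 genes, with 32 tested. In EMBRYO TM, 10 were higher and 2 lower past both thresholds, beside 5.06% and 7.61% of all genes, with a median log2 fold change of 0.40 beside -0.029. The largest increases were in lipl-1 (3.39) and gba-4, a glucosylceramidase gene (2.27), and the decreases in ppt-1, a palmitoyl-protein thioesterase gene, and gba-3 (-1.13 each). In L4 TM, 0 were higher and 6 lower, beside 0.585% and 3.20% of all genes, with a median of -0.52 beside 0.046, and the largest decreases were in the lipase genes lipl-2 (-1.76) and lipl-1 (-1.70). The largest value above 0 in L4 TM was pcp-3 at 0.92, not past the fold threshold. The interaction was positive past both thresholds for 17 of the 32 and negative for 0, beside 6.50% and 4.22% of all genes.

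Genes of the lysosome membrane, the proton pump and lysosome control, 22 in all, were counted the same way. In EMBRYO TM 3 of 22 were higher and 0 lower, beside 5.06% and 7.61% of all genes, with a median log2 fold change of 0.0047 beside -0.029. They were vha-6 (1.54) and vha-12 (1.205), subunits of the proton pump that acidifies lysosomes and the gut lumen, and scav-1, a scavenger receptor gene (1.206). In L4 TM 0 of 21 were higher or lower past both thresholds, 9 were higher and 2 lower by adjusted p alone, beside 20.3% and 15.8% of all genes, and the median was 0.23 beside 0.046.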

How the data were processed

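Whole worms in 4 groups of 4 libraries were measured by poly(A) RNA-seq. Reads were aligned with HISAT2 2.0.5 and counted with featureCounts 1.5.0-p3, and the authors deposited FPKM values per gene. Whole numbers of reads were recovered within 0.01 for 100% of values, which gave the depth. The members and gene lists were chosen with earlier results of these data known, and the papain-family list was taken from the family column of the table after the data were seen.

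limma 3.58.1 in R 4.3.3 was fitted to log2(FPKM + 1) with a mean-variance trend, for genes with a mean of at least 1 FPKM over the libraries compared, with Benjamini-Hochberg adjustment over all genes tested. The count model of the study was not used, since FPKM are not counts. The test was run on simulated counts with the same spread set for every gene and no library that stood apart. That setting differs from these data, so the run does not cover such libraries. All 8 members are named, with called papain-family genes, cystatins, the 2 largest changes in each direction of the lysosome lists, and 3 genes of nearest pattern per member. Alternatives were pseudocounts, filters, scalings, voom, a replicate block, 1 model of all libraries, protein-coding genes alone and each library left out. Replicate libraries came from separate plates. Python 3.11.15 and pandas 2.3.3 made the tables.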

Additional observations from a re-analysis of the deposited data

Results flagged for a closer look

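Within groups of 4 libraries, 12 of the 48 sets of values examined had 1 library separated from the other 3 by more than Dixon's 95% critical value. All 12 belong to L4 CNT 2 or L4 TM 4. Chance gives such a gap in about 1 in 20 independent sets. These sets share libraries, and the sum is made of the 8 genes, so their count cannot be set against that rate. L4 CNT 2 was low for cpr-1 (807.6 FPKM), cpr-4 (419.7), cpr-6 (916.5), cpr-8 (11.9) and the sum of the 8 genes (3822). L4 TM 4 was low for cpr-1 (148.6 FPKM), cpr-4 (113.2), cpr-5 (115.0) and the sum (2542). L4 TM 4 also had 47193068 reads on genes, the most of its group, but the fewest genes detected (15377) and the lowest share of detected genes with a single read (0.702%).

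The TM effect differed between EMBRYO and L4 past both thresholds of the limma interaction for 6 of the 8 genes on the positive side and 1 on the negative side. Of all 13856 genes tested, 6.50% and 4.22% did so. For cpr-6 the difference was within the fold threshold (adjusted p by limma = 8.43e-05). On the log2 scale the differences, EMBRYO less L4, were 4.21 for cpr-1, -1.29 for cpr-2, 1.40 for cpr-3, 5.42 for cpr-4, 1.77 for cpr-5, 0.82 for cpr-6, 1.53 for cpr-8 and 1.25 for cpl-1. The value of cpr-2 rests on the pseudocount, since its L4 levels were near 0.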

How the results depend on the processing

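Of 644 values of single genes under other settings, 630 kept their direction and stayed called, or not called, past both thresholds together, 8 lost the call, 2 gained it and 4 changed sign. By adjusted p alone, 7 of the 644 lost the 0.05 threshold and 10 passed it, in cpr-5, cpr-6, cpr-8 and cpl-1 in L4 TM, cpr-1 in EMBRYO CNT against L4 CNT and the interaction of cpr-2. Changes of sign were 0.010 for cpr-1 in EMBRYO CNT against L4 CNT and 1.37 for the interaction of cpr-2, both by voom, and -0.023 for cpr-8 in L4 TM by voom, with a range of -0.056 to 0.32 over the libraries left out in turn. The number of genes changed in L4 TM was 4 by adjusted p alone, against 2. Under the other settings, all counts of changed genes were within 1.5 times the count given. The replicate numbers did not pair the libraries, with correlations of same-numbered deviations from -0.23 to 0.088 in the EMBRYO groups and from -0.31 to 0.20 in the L4 groups. With the number as a replicate block, 6 genes were changed in EMBRYO TM, 2 in L4 TM, 6 in EMBRYO CNT against L4 CNT and 7 in the interaction, the counts given without it, while the adjusted p of cpr-6 in L4 TM was 0.0875. With a mean of at least 5 FPKM required, cpr-8 had no value in EMBRYO TM against EMBRYO CNT. The few reads of cpr-2 in the L4 libraries limit any statement on its L4 effect. The causes of these shifts were not tested.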
